A study of Homo sapiens with 2 samples.

Results

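SAMHD1, CMPK2 and 7 further enzymes that make, recycle or break down nucleotides (CMPK1, RRM1, RRM2B, DCK, DGUOK, TK2 and DUT) were followed in Huh-7 cells, an established human hepatoma line, with and without interferon-alpha. The members were all probe sets annotated to only 1 of these genes, a probe set being the group of array probes that reads 1 transcript. There were 24 such probe sets for the 9 genes, out of 54613 probe sets other than controls and 41091 with 1 named gene. Of probe sets annotated to several genes, 0 included any of the 9. One culture had its growth medium replaced after 24 hours of incubation by medium with recombinant human interferon-alpha 2b at 100 U/mL and was described as treated for 6 hours. The other culture, the untreated control, had its medium exchanged, and the sources used here do not give its harvest time. Each was read on 1 Affymetrix array from 6 µg of total RNA. No replicate exists, so no difference below has a replicate error, a test or a p-value. In bulk RNA a larger share of responding cells and more transcript per cell cannot be told apart.

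Cells build DNA from deoxynucleoside triphosphates (dNTPs), and the size of this pool limits DNA synthesis by the cell and by many viruses. Ribonucleotide reductase makes the building blocks anew from ribonucleotides, kinases salvage nucleosides and add phosphates, and hydrolases take dNTPs apart. SAMHD1 is the dNTP hydrolase known for restricting HIV-1 and other viruses in cells that do not divide, and CMPK2 is a mitochondrial nucleotide kinase found among interferon-stimulated genes in many cell types.

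Interferon-alpha was accompanied by higher SAMHD1 and CMPK2 signal, while the 7 other enzymes lay within a narrow band around their untreated level. SAMHD1 was 2.69-fold to 3.73-fold higher on the 4 probe sets that had a usable signal in both cultures. CMPK2 went from an intensity of 11.2, below the floor of usable signal, to 411, which is at least 8.48-fold higher. The 14 counted probe sets of the other 7 enzymes lay between -0.07 and 0.20 on the log2 scale. The floor, an intensity of 48.5, is the 50th percentile of both arrays together. Values below it were raised to it, and a probe set was counted when it exceeded the floor on at least 1 array. A probe set that exceeded it on each array is called measured on both, and one that exceeded it on neither is called dim on both.

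Of the 24 probe sets, 20 were counted, 18 of them measured on both arrays, and 4 were dim on both. At least 2-fold higher with interferon were 5 of the 20, against 87 of 23871 counted probe sets with 1 named gene, or 0.364%. At 1.5-fold they were 6 of 20, against 0.754% of all. At least 2-fold lower were 0 of the 20 and 0 of the 23871, and 0 of the 20 were at least 1.5-fold lower, against 0.0754% of all. The 5 probe sets past 2-fold came from only 2 genes, 4 from SAMHD1 and 1 from CMPK2. Those 4 are repeated readings of 1 gene in the same RNA. The CMPK2 probe set 226702_at and the SAMHD1 probe set 1559883_s_at were counted only because they exceeded the floor with interferon. The former is among the 5, and both are among the 6 past 1.5-fold. The members were chosen with earlier results of these data known. The shares set against all probe sets therefore describe this list and are no independent test.

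**Figure D1:**
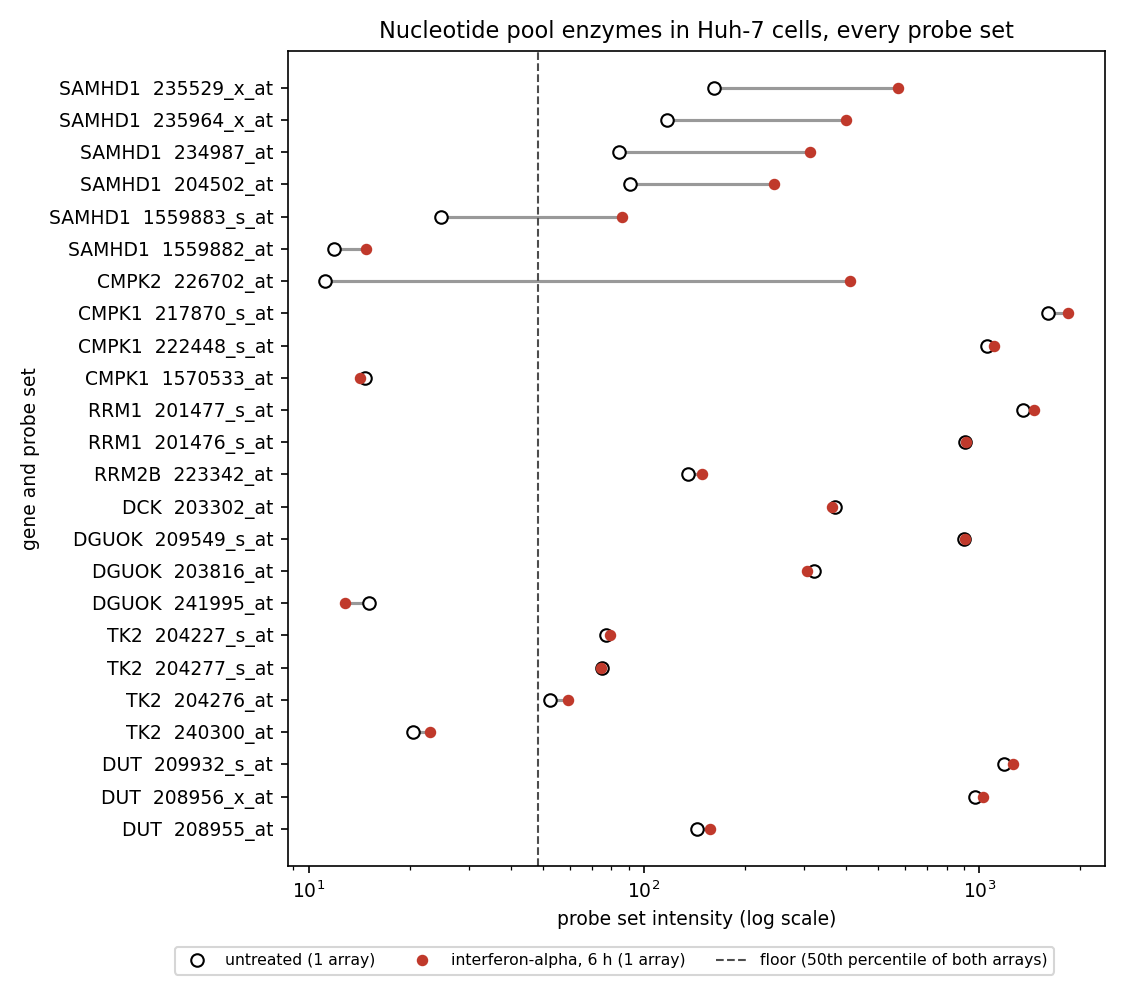
Intensity of each of the 24 probe sets on the untreated array (open circles) and the interferon array (red circles), on a log axis, with 1 array per condition and the floor of 48.5 dashed. SAMHD1 and CMPK2 have the long horizontal lines, CMPK2 from 11.2 to 411, whereas the circles of the other enzymes nearly coincide.

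The upstream sequences of the 2 genes that differed are shown because type I interferon is known to act through a response element in the promoters of its target genes. Both are from RefSeq on GRCh38.p14, 250 bases up to the annotated start, 5′ to 3′ on the gene's own strand, which is the minus strand for each. The motif searched was the core of this element, GAAA followed after any 2 bases by a second GAAA, on both strands. Capitals mark a variant with a single base between the repeats, GAAANGAAA or, on the other strand, TTTCNTTTC, which was added after the CMPK2 sequence had been seen. CMPK2 has 3 annotated windows, and the 1 shown is the one that holds this variant.
CMPK2 chr2:6865820-6866069: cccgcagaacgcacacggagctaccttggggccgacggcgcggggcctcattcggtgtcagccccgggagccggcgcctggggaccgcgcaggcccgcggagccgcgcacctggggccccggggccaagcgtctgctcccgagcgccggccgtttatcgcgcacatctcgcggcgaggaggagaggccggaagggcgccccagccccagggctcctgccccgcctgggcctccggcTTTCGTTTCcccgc
SAMHD1 chr20:36951709-36951958: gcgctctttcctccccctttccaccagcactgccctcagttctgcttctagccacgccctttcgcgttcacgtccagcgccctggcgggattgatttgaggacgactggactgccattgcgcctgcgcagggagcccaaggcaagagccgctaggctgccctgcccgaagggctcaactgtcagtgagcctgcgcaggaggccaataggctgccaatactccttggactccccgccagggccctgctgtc
The form with 2 bases between the repeats was in 0 of the 13 windows, from 250 bases before to 50 after the start, that were matched for 8 of the 9 genes. It was in 3.57% of all 35116 windows. By gene it was in 3.64% of 10683 counted genes with a window and in 30 of the 48 such genes at least 2-fold higher. The form with 1 base was in 2 of the 13 windows, 1 of CMPK2, which had prompted the variant, and 1 of DUT, and in 3.12% of all windows. By gene it was in 3.30% of the counted genes and in 17 of the 48 at least 2-fold higher. In CMPK2 it lay 14 to 6 bases before the start (-14 to -6) in the capitals above and occurred once more within the 50 bases after it. In DUT it lay at -53 to -45. A match describes letters only, and the absence of one says nothing about whether a factor binds.

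SAMHD1 was read by 6 probe sets, of which 5 were counted and 4 were measured on both arrays. Probe set 235529_x_at, the brightest, had an intensity of 162 untreated and 571 with interferon, or 3.52-fold (log2 1.81). Probe set 235964_x_at had 117 and 400, or 3.42-fold (log2 1.77). The suffix _x_at marks probes that may also bind other transcripts, and the next pair carries no such mark.

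Probe set 234987_at had intensities of 84.0 and 313, a 3.73-fold difference (log2 1.90). Probe set 204502_at had 90.7 and 244, a 2.69-fold difference (log2 1.43), the smallest of the 4 measured on both arrays. The probe sets with and without the suffix thus overlapped in their ratios.

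The other readings of SAMHD1 were dim. Probe set 1559883_s_at had 24.9 untreated, below the floor, and 86.0 with interferon, at least 1.77-fold higher. Probe set 1559882_at had 11.9 and 14.9 and was dim on both, so that no ratio was taken. These 2 share 1 accession in the annotation, and yet only the former was above the floor with interferon.

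Across its 4 probe sets measured on both arrays, SAMHD1 had a mean log2 ratio of 1.73 ± 0.21 (SD over probe sets, n = 4, which is no replicate error). Their range of 0.47 was wider than the median range of 0.25 over the 986 genes with 4 or more such probe sets. In 2 of those 986 genes every such probe set was at least 2-fold higher, namely SAMHD1 and SP110, a nuclear body protein, named after their values were seen. SP110 ran from 2.04-fold to 11.9-fold. With every counted probe set required to pass, bounds included, it was 0 of 1091 genes with 4 or more, so that neither SAMHD1 nor SP110 passed. For SAMHD1 the probe set that fell short was 1559883_s_at, whose bound was under 2-fold. Among the 23871 counted probe sets with 1 gene, ranked from the highest log2 ratio down with bounds taken at their lower limit, the 4 of SAMHD1 stood at 46, 50, 51 and 67.

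The spread of probe sets of like brightness gives a scale, although it is not a replicate error. In the brightness group of 234987_at and 204502_at, 1 of 10 equal groups of the probe sets measured on both, 95% of the ratios in the middle spanned log2 -0.26 to 0.36. All 4 SAMHD1 probe sets lay outside the range of their own group. Each of the 14 probe sets of the 7 enzymes without such a difference lay inside its own.

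**Figure D2:**
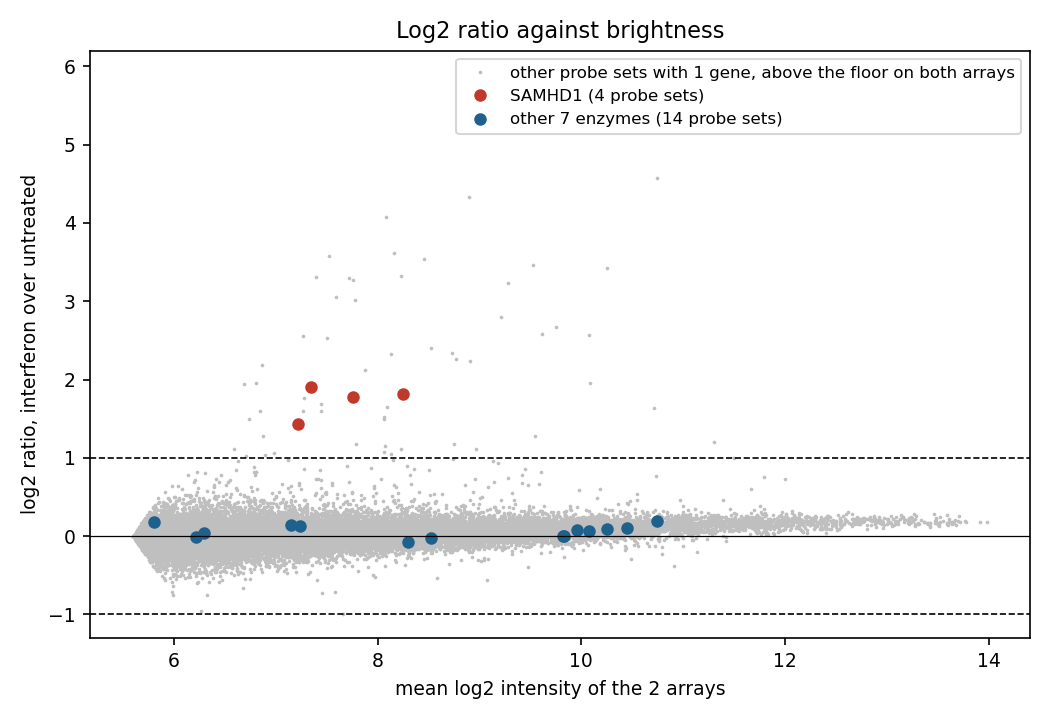
Log2 ratio of interferon over untreated against the mean log2 intensity of both arrays, for probe sets with 1 named gene measured on both arrays (grey), SAMHD1 (red, 4 probe sets) and the other 7 enzymes (blue, 14 probe sets), with dashed lines at 2-fold. The red points lie between 1.43 and 1.90, and the blue points lie in the grey band. CMPK2 is not drawn, since its untreated value was below the floor.

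CMPK2, which phosphorylates CMP and UMP and their deoxy forms in mitochondria, was read by 1 probe set only, 226702_at. Its log2 ratio was at least 3.08. The bound depends on the floor, because the untreated intensity of 11.2 was far below it. At a floor set on the 40th percentile the log2 ratio was 3.68, and with no floor it was 5.20. No second probe set of the gene was there to compare.

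RSAD2, or viperin, an enzyme that converts CTP into a chain-terminating analogue, is the protein-coding gene next to CMPK2 in the RefSeq order of chromosome 2. Its probe set 213797_at had 20.9 untreated and 65.9 with interferon, at least 1.36-fold higher, and 242625_at was dim on both at 14.0 and 28.1. A promoter window of RSAD2, on the opposite strand, shares 115 bases with the CMPK2 sequence shown above. The capitals in the CMPK2 sequence, chr2:6865825-6865833, are 1 of the 4 GAAANGAAA matches in that RSAD2 window. A second RSAD2 window held the form with 2 bases at -145 to -136. Both differences are lower bounds, and their sizes were not compared.

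The cytosolic counterpart of CMPK2 had ratios close to 1. CMPK1, the UMP-CMP kinase of the cytosol, had intensities of 1600 and 1834 on probe set 217870_s_at, or 1.15-fold (log2 0.20). On 222448_s_at it had 1057 and 1108, or 1.05-fold (log2 0.07). Both were within the middle 95% of the brightest group of probe sets, -0.03 to 0.29, whose median was 0.13. The remaining probe set, 1570533_at, was dim on both at 14.7 and 14.3. The difference between the 2 kinases is a comparison of a ratio with a bound and was not tested.

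The subunits of ribonucleotide reductase, which turns ribonucleotides into deoxyribonucleotides, stayed close to their untreated values. RRM1, the large catalytic subunit, had 1347 and 1452 on 201477_s_at (log2 0.11) and 909 and 911 on 201476_s_at (log2 0.004). RRM2B, the p53-inducible small subunit that supplies dNTPs outside S phase, had 135 and 149 on its only probe set (log2 0.14). RRM2, the S-phase small subunit, had a log2 ratio of 0.11 at 3428 and 3688. All 7 genes of the list named ribonucleotide reductase and its reductants were counted, with a median of 0.14. They lay between 0.06 (AHCYL1, which is neither a subunit nor a reductant) and 0.19 (TXNRD1).

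The deoxynucleoside kinases add the first phosphate in salvage, and their values nearly coincided on the 2 arrays. DCK, the cytosolic kinase for deoxycytidine and purine deoxynucleosides, had 371 and 365 (log2 -0.02). DGUOK, its mitochondrial relative for purines, had 901 and 903 on 209549_s_at (log2 0.003) and 322 and 307 on 203816_at (log2 -0.07). The remaining DGUOK probe set, 241995_at, was dim on both at 15.2 and 12.8.

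TK2, the mitochondrial thymidine kinase, had intensities close to the floor. Its probe sets 204227_s_at, 204277_s_at and 204276_at had 77.3 and 79.3, 74.8 and 74.3, and 52.5 and 59.2. The log2 ratios were 0.04, -0.01 and 0.17, the last from values just above the floor, and 240300_at was below it at 20.5 and 23.1. With the thymidine kinase TK1 of the cytosol, at 0.004, the 4 genes of the list had a median of 0.003, and 0 of 4 passed 1.5-fold, where 0.754% of all counted genes were higher and 0.0829% lower by that much, so that 0 of 4 is near the background.

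DUT, the hydrolase that removes dUTP and supplies dUMP for thymidylate synthesis, was read by 3 counted probe sets. They had 1184 and 1261 on 209932_s_at (log2 0.09), 973 and 1022 on 208956_x_at (log2 0.07) and 144 and 158 on 208955_at (log2 0.13). All 3 lay inside the ranges of their brightness groups. SAMHD1 and DUT are both hydrolases of the pool, and in the list of 10 counted hydrolases SAMHD1 was the only gene past 1.5-fold. Of all counted genes 0.754% were higher and 0.0829% lower by that much. The other 9 hydrolases ran from -0.17 (NT5M, a mitochondrial deoxynucleotidase) to 0.14 (NT5C, its cytosolic relative). The absence of a further hydrolase past 1.5-fold is near that background.

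Over the 14 counted probe sets of the 7 enzymes, 11 were above 0 and 3 below it, with a median log2 ratio of 0.07. The median of all counted probe sets with 1 gene was 0.03. Signs this close to 0 follow the scaling: 2 of the 14 were below 0 after median scaling, 6 after scaling to a common trimmed mean, 8 after quantile scaling, 8 after lowess scaling and 14 after centring on the hybridisation controls. That centring lowered the median of probe sets with 1 gene measured on both from 0.04 to -0.38, and the median of the 14 was then -0.36.

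Around these enzymes, chosen lists of nucleotide metabolism had no further counted gene past 1.5-fold in either direction. Of 85 further genes in these lists, 79 had a probe set and 73 were counted, and 0 of 73 were at least 1.5-fold higher or lower. Among all 13269 counted genes 0.754% were higher and 0.0829% lower by that much, so that 0 of 73 is near the background. The median log2 ratio of the 73 was 0.06, against 0.03 for all counted genes. The highest was NT5C3A, a pyrimidine nucleotidase, at 604 and 709 (log2 0.23), and the lowest was XDH, xanthine dehydrogenase, at 70.8 and 60.6 (log2 -0.22).

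Among the separate steps, the 12 counted mono- and diphosphate kinases had CMPK2 as their only member past 1.5-fold. Of all counted genes 0.754% were higher and 0.0829% lower by that much. The other kinases ran from -0.13 (AK5, an adenylate kinase) to 0.20 (NME1, a nucleoside diphosphate kinase). The absence of a further kinase past 1.5-fold is near that background. De novo pyrimidine synthesis had the lowest median of these lists, -0.08 over 5 genes, from CTPS2 (-0.09) to UMPS (0.04). De novo purine synthesis had a median of 0.08 over 11 counted genes, from ADSS1 (-0.08) to IMPDH1 (0.13).

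Thymidylate synthesis and the folate cycle had a median of 0.11 over 5 counted genes, with TYMS, thymidylate synthase, highest at 0.20 and DCTD at 0. Salvage and breakdown genes had a median of 0.04 over 14, and transporters 0.03 over 5, from SLC29A3 (-0.07) to SLC29A2 (0.21). Mitochondrial DNA maintenance genes, which depend on the pool that CMPK2, TK2, DGUOK and RRM2B feed, had a median of 0.13 over 9, from MPV17 (-0.08) to POLG2 (0.20). These values are from the brightest probe set of each gene, and other counted probe sets could differ. Another one of SSBP1, the mitochondrial single-strand binding protein, was at 0.58. The 5 counted probe sets of SLC29A2 ran from -0.38 to 0.21. SLC25A36, also in the transporter list, had 0.03 on its brightest probe set and 0.47 on another. The signs of all these medians are subject to the scaling as above.

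**Figure D3:**
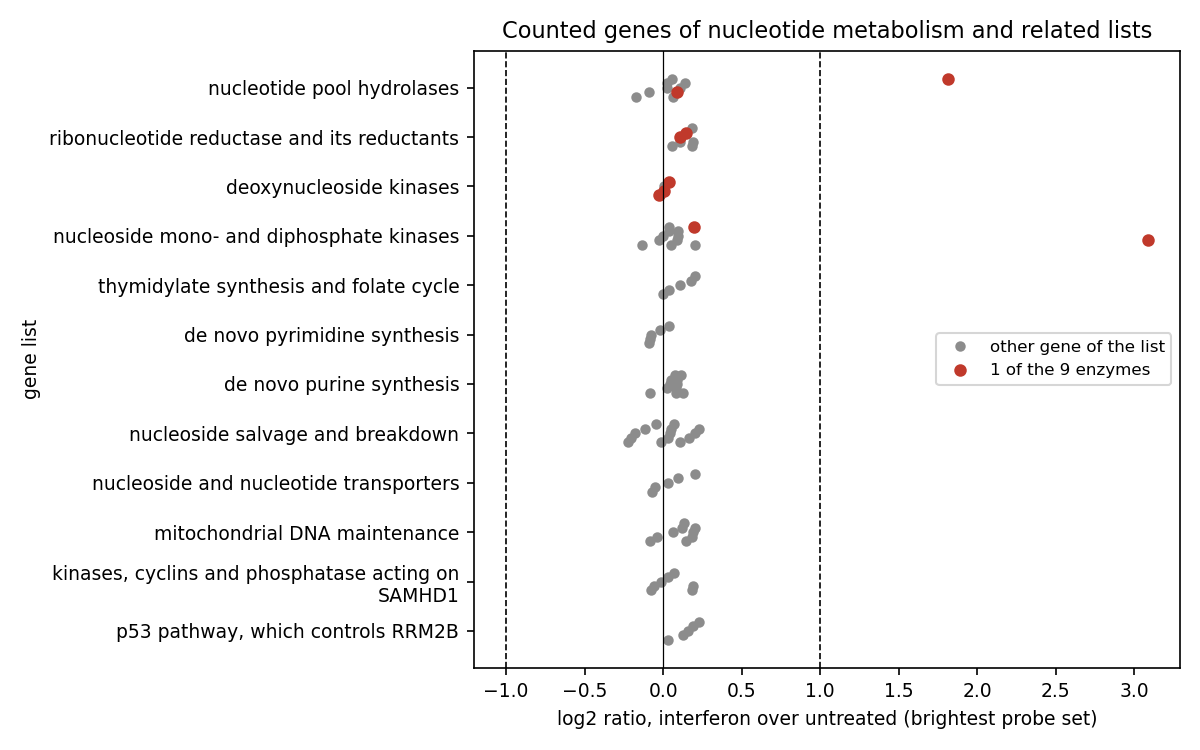
Log2 ratio of each counted gene, read on its brightest probe set, in 12 lists of nucleotide metabolism and of regulators, with the 9 enzymes in red and dashed lines at 2-fold. SAMHD1 at 1.81 and CMPK2 at its lower bound of 3.08 are the only points beyond 1, and the other genes lie between -0.22 and 0.23.

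Regulators of these proteins had small ratios at the RNA level. SAMHD1 is phosphorylated by cyclin-dependent kinases in dividing cells, and the 7 counted genes of that list ran from -0.08 (CDK6) to 0.19 (PPP2R2A, a regulatory subunit of the phosphatase that reverses it). CDK1 had 2367 and 2693 and its partner CCNA2 1221 and 1212. The 5 counted genes of the p53 list, the pathway that induces RRM2B, ran from 0.03 (CDKN1A) to 0.23 (TP53INP1). No counted gene of these 2 lists passed 1.5-fold, which at 0.754% higher and 0.0829% lower among all counted genes is near the background.

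The treated array carried an interferon response, and 7 of 7 counted check genes were at least 2-fold higher, against 0.43% of all counted genes. They ran from OAS1, at least 3.60-fold, to IFIT1, at least 64.5-fold. The check genes were chosen with earlier results of these data known, so that 7 of 7 describes this list and is no independent test. RSAD2, which is outside the list, was at least 1.36-fold higher. All 7 hepatocyte markers with a probe set were measured on both, and ALB had 12212 and 14588. SAMHD1 is abundant in myeloid cells, and of 7 myeloid markers 3 were dim on both, among them the leukocyte gene PTPRC at 19.2 and 17.0. The other 4 were measured on both, namely CD14 (91.1 and 76.5), CSF1R (99.1 and 101), ITGAM (66.3 and 78.8) and LYZ. The summed myeloid marker intensity was 2412 untreated and 2609 with interferon, of which LYZ made 2064 and 2271. Of 6 lymphocyte markers 4 were dim on both, whereas CD3D (69.2 and 60.4) and CD79A (105 and 89.1) were measured on both. Among all 19775 genes with a probe set, 6506 were dim on both and 12742 were measured on both. The marker counts therefore do not show which cell types were present or absent. The lymphocyte sums were 257 and 234. Endothelial sums were 283 and 256, and fibroblast sums 912 and 935. All these sums add up different probe sets, dim ones included, whose levels are not comparable, so they do not measure amounts of cells. None of these markers differed by 2-fold, and their part in the SAMHD1 difference was not tested.

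Under the processing settings tried, SAMHD1 and CMPK2 stayed past 2-fold and the other 7 genes stayed under it. The log2 ratio of SAMHD1 ran from 1.39 to 1.90 over 10 alternatives, and that of CMPK2 from 2.87 to 5.20. The 1.90 is from 234987_at, which stood for SAMHD1 once probe sets marked _x_at and _s_at were left out. Probe set 235529_x_at itself ran from 1.39 to 1.84. After centring on the hybridisation controls, probe set 204502_at was only just at 2-fold and 235529_x_at was at 1.39.

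**Figure D4:**
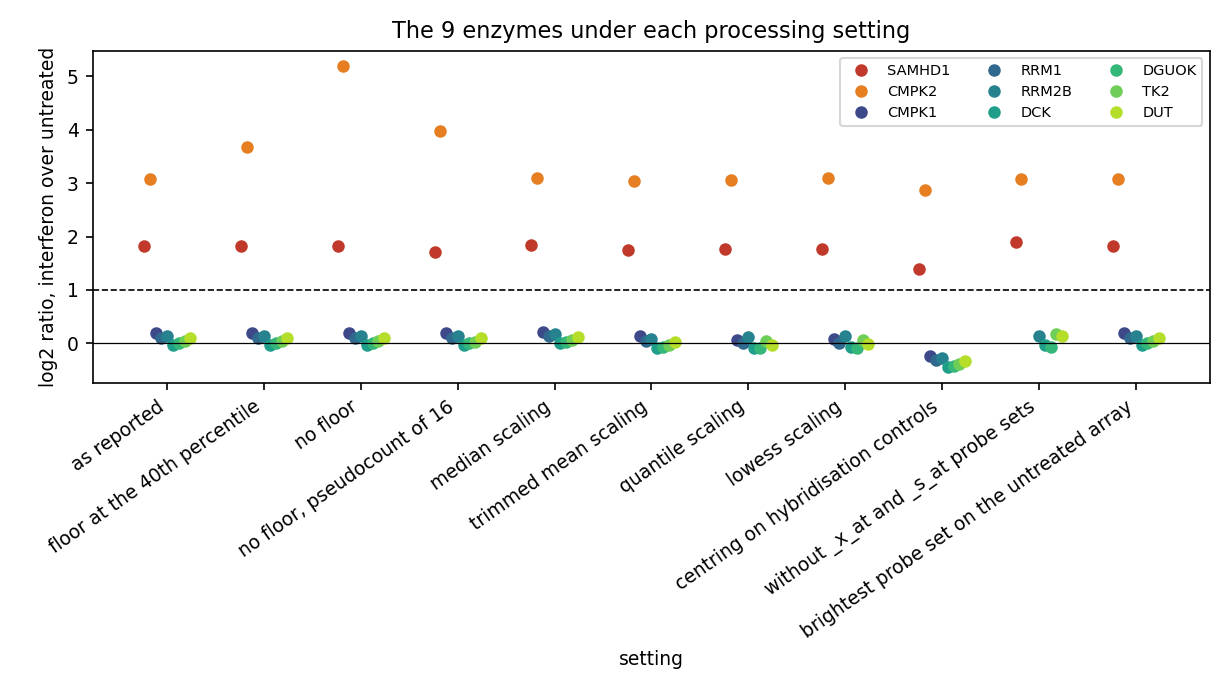
Log2 ratio of each of the 9 enzymes under the reported setting and the 10 alternatives, with a dashed line at 2-fold. Each enzyme is read on the probe set chosen under that setting. SAMHD1 (red) and CMPK2 (orange) lie above the line in all of them, and the other enzymes lie between -0.45 and 0.22. CMPK2 is a lower bound where a floor is used, and CMPK1 and RRM1 have no value once the probe sets marked _x_at and _s_at are left out.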

How the data were processed

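Expression was measured in 1 untreated and 1 interferon-treated culture of Huh-7 cells. The table deposited by the authors holds linear intensities, 1 for each probe set on each array. Per the submitters' processing notes the authors used GCOS, Affymetrix's scanner software. Its version, background correction, probe set summary and scaling are not given in the sources used, and the deposited scaling was kept. The number of arrays limits the precision. Gene names came from GEO's platform annotation, with symbols updated by gene ID. After the floor, log2 ratios were taken with numpy 2.4.6 and pandas 2.3.3, and a gene was represented by its brightest probe set by mean log2 intensity. Genes were named by rule: all 9 members with every probe set, list genes at least 1.5-fold changed, and each list's highest and lowest gene. A further part of the rule, the 3 genes nearest to SAMHD1 and CMPK2 in level, was left out because levels of different probe sets are not comparable. Markers, check genes and a few list genes are examples beyond it. Members and lists were chosen with earlier results of these data known. Alternatives were other floors, a pseudocount of 16, 5 other scalings and other probe set choices. The calculation was tested on simulated data in which only probe sets well above the floor were given a difference. Lower bounds such as that of CMPK2 were therefore not covered by it.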

Additional observations from a re-analysis of the deposited data

How the results depend on the processing

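The count of 5 probe sets at least 2-fold higher was 5 or 6 under 8 of 9 alternatives. With the probe sets marked _x_at and _s_at left out it was 3, and the count at 1.5-fold was also 3 in place of 6, because only 8 of the 20 counted probe sets remained. CMPK1 and RRM1 had no counted probe set left there. The log2 ratio of CMPK2 was 3.68 with a 40th percentile floor, 3.97 with no floor and a pseudocount of 16, and 5.20 with no floor. Centring on the hybridisation controls gave 2.87 for CMPK2, 1.39 for SAMHD1 and -0.37 for the median of the pathway genes, and the other 7 enzymes then lay between -0.45 and -0.23. The hybridisation controls themselves had a median log2 ratio of 0.43. The motif form with 1 base between the repeats was in 2 member genes, against 0 for the form first searched. No call changed its direction. Other shifts were judged against 0.13, the robust SD of log2 ratios over genes, since no replicate error exists. No paired analysis was possible because each condition has 1 array. Signal near the floor limits CMPK2, TK2 and the dim SAMHD1 probe sets.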
